A study of Homo sapiens with 6 samples.

Results

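The 2 MRCK double knockout (DKO) lines of the human breast cancer cell line MDA-MB-231 were compared with each other, gene by gene. Of the 17064 genes in the table of all libraries, 9760 had 100 or more expected counts (reads assigned to a gene by a statistical estimate) in both DKO libraries. Within these, 48 genes were at least 2-fold apart in FPKM (reads scaled to transcript length and to the size of the library), which is 0.492% of them. DKO 2 was higher than DKO 1 in 13 genes (0.133%) and lower in 35 genes (0.359%). The ratio of DKO 2 to DKO 1 chose these genes, so their DKO values are given as a description. The pair of vector control libraries played no part in the choice.

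The study sequenced RNA from 6 libraries, each from MDA-MB-231 cells, a basal-like, mesenchymal-looking breast cancer line without estrogen receptor. Cells labelled vector (vector 1 and vector 2) came from separate transductions with the empty vector. The other libraries were MRCKα KO (knockout of CDC42BPA), MRCKβ KO (knockout of CDC42BPB) and DKO 1 and DKO 2 (knockout of both genes), the last pair made with different guide RNAs for the same 2 genes. All 6 cell populations carried a lentiviral CRISPR vector and were grown as antibiotic-selected populations, not as picked clones. Which guide set made DKO 1 and which made DKO 2 is not stated in the sources used here, so guide and library cannot be told apart. Each line is represented by 1 library, and the differences below have no replicate check.

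MRCKα and MRCKβ are kinases activated by the small GTPase CDC42. They phosphorylate myosin light chain and its phosphatase and thereby promote contraction of the actomyosin network. Lines made with different guides against the same genes are used in this field because off-target cutting and the history of a cell population should differ between them, while loss of the targeted protein should be shared.

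Each library held between 10349898 and 10657857 expected counts. The targeted genes were close to equal between the DKO lines, with CDC42BPA at 28.31 FPKM in DKO 1 and 26.06 in DKO 2 (log2 ratio -0.12) and CDC42BPB at 23.42 and 23.47 (log2 ratio 0.00). A CRISPR cut need not remove the transcript, so these levels do not check the loss of protein. Markers of MDA-MB-231 were present in every library (VIM, CD44, EGFR, CAV1 and MSN), with a summed level of 2269 to 2822 FPKM, and ESR1, PGR, CDH1 and EPCAM summed to 1.94 to 4.01 FPKM. A list of 4 fibroblast genes summed to 5.73 FPKM in DKO 1 and 3.78 in DKO 2, and to 10.29 in vector 1 and 3.73 in vector 2. All 4 of its genes were above 0 in 5 libraries and 3 in vector 2, where DCN was listed at 0. PDGFRB was most of this difference, at 3.15 and 1.14 FPKM in DKO 1 and DKO 2 and at 5.90 and 1.35 in vector 1 and vector 2. The part of this list in the results below was not tested.

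Over the 9760 genes the DKO pair was closer than the vector pair. The minimum of 100 counts applied to the DKO libraries alone, so genes with fewer counts in a vector library stayed in. That could widen the vector pair, and its part in the difference was not tested. The log2 ratio of DKO 2 to DKO 1 had a median of 0.01 and an SD across genes of 0.26, against -0.01 and 0.37 for vector 2 over vector 1. The central 90 percent of genes lay between -0.44 and 0.36 in the DKO pair and between -0.64 and 0.52 in the vector pair. Of the same genes, 66 (0.676%) were at least 2-fold higher in vector 2 and 106 (1.09%) at least 2-fold lower, together 172 (1.76%). At 1.5-fold, DKO 2 was higher in 114 genes (1.17%) and lower in 243 (2.49%), and vector 2 was higher in 331 (3.39%) and lower in 603 (6.18%). Past these limits the library numbered 2 had more genes lower than higher in both pairs, while at any size DKO 2 was higher in 52.9% of genes and lower in 46.8%.

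The DKO lines also differed in how far they stood from the other libraries. DKO 1 was 2-fold apart from MRCKβ KO in 7 genes, from MRCKα KO in 15 and from vector 1 in 27. DKO 2 was 2-fold apart from MRCKα KO in 83 genes, from MRCKβ KO in 109 and from vector 1 in 136. Against vector 2 the order turned, with 118 genes for DKO 1 and 73 for DKO 2. These counts share libraries and are not independent of each other.

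Most genes that separated the DKO lines separated the vector libraries in the same direction. No source used here says whether libraries with the same number were handled together, so a shared batch and other reasons for this likeness cannot be told apart. Of the 13 genes higher in DKO 2, 10 were also higher in vector 2 than in vector 1, where 49.2% of all 9760 genes were higher. Of the 35 genes lower in DKO 2, 30 were also lower in vector 2, where 50.7% of all genes were lower. At 2-fold, 7 of the 13 and 14 of the 35 were apart in the vector pair in the same direction, beside the 0.676% and 1.09% of all genes, and none was 2-fold apart in the opposite direction. The median log2 ratio in the vector pair was 1.14 for the higher genes and -0.91 for the lower genes, while in the DKO pair, which chose them, it was 1.18 and -1.19. Across all 9760 genes the sign was shared by 62.6%, and the log2 ratios of both pairs had a Pearson correlation of 0.44 (a description across genes of the same 4 libraries, since genes are not independent replicates).

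**Figure D1:**
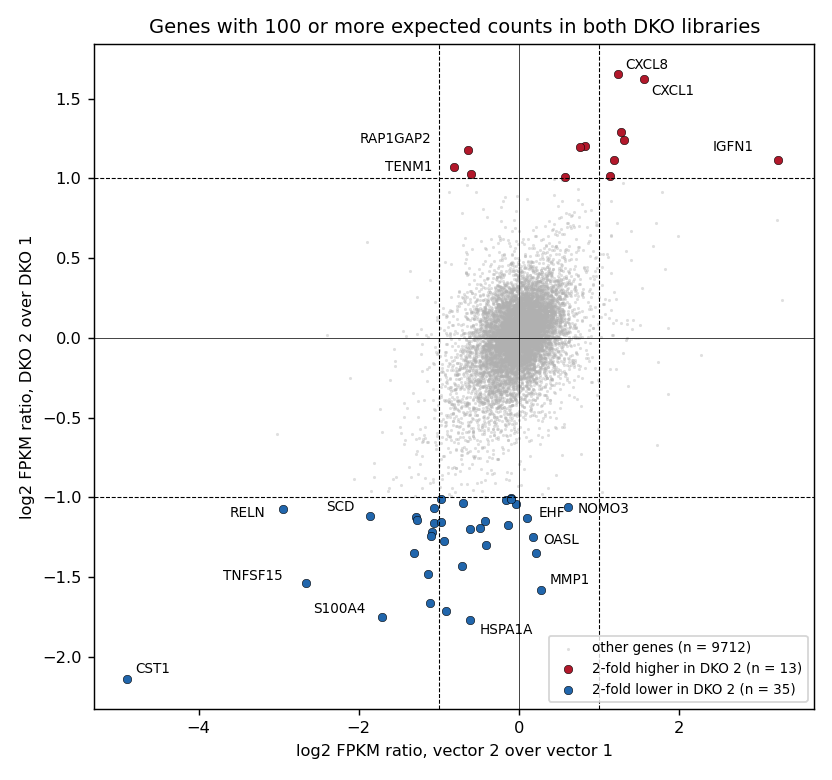
Log2 FPKM ratio of vector 2 over vector 1 (horizontal axis) against that of DKO 2 over DKO 1 (vertical axis) for 9760 genes, 1 point a gene, with dashed lines at 2-fold. The 13 genes higher in DKO 2 (red) and the 35 lower (blue) lie mostly in the upper right and lower left, where both pairs have the same sign.

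The chemokines CXCL8 and CXCL1 had the highest ratios. CXCL8, the neutrophil attractant interleukin-8, was at 36.45 FPKM in DKO 1 and 114.61 in DKO 2, a 3.14-fold difference. It stood at 7.31 in vector 1, 17.31 in vector 2, 28.52 in MRCKα KO and 19.61 in MRCKβ KO. Thus vector 1 was lowest, both DKO libraries were above all others, and the gap within the vector pair was 2.37-fold in the same direction.

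CXCL1, which acts on the same receptor CXCR2, followed the same order at its ends, with 12.01 FPKM in DKO 1 and 37.03 in DKO 2 (3.08-fold). Its level was 2.21 in vector 1, 6.52 in vector 2, 5.52 in MRCKα KO and 6.29 in MRCKβ KO. The vector levels of CXCL1 rest on few reads, 27.4 and 78.66 counts. CXCL8 and CXCL1 lie 126 kb apart on chromosome 4. IL24, a cytokine of the interleukin-10 family, was at 16.09 FPKM in DKO 1 and 32.46 in DKO 2, against 6.07 in vector 1, 13.36 in vector 2, 15.39 in MRCKα KO and 12.49 in MRCKβ KO. For all 3 genes DKO 2 was highest and vector 1 lowest of the 6 libraries, and both DKO libraries were above both vector libraries.

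The promoters of CXCL8 and CXCL1 are shown because these genes were both higher in DKO 2 than in DKO 1 and in vector 2 than in vector 1, beside that of S100A4, a gene with a large difference the other way. The sequences are the 250 bases before the RefSeq start (GRCh38.p14, 5′ to 3′ on the strand of the gene), at chr4:73740319-73740568 on the plus strand, chr4:73869143-73869392 on the plus strand and chr1:153545807-153546056 on the minus strand. Capitals mark every match on either strand to an NF-κB motif, an AP-1 motif or a TATA motif, and the marked matches do not overlap.
CXCL8: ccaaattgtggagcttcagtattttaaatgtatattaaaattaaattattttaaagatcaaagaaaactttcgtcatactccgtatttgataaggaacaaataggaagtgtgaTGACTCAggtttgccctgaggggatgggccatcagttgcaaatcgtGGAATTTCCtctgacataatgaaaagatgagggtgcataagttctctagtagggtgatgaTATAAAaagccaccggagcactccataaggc
CXCL1: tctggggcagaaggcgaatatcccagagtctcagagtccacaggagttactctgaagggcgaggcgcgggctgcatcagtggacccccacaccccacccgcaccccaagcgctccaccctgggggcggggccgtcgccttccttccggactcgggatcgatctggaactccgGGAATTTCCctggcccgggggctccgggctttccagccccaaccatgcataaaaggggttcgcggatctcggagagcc
S100A4: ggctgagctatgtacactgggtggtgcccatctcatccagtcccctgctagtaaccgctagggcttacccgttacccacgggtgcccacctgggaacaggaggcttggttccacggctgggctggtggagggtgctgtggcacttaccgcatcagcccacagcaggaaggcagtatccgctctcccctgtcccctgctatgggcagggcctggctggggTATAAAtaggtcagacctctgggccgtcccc

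In CXCL8 the NF-κB motif starts at position -91 from the RefSeq start and the AP-1 motif at -137, and in CXCL1 the NF-κB motif starts at -78. RefSeq promoters were matched for 34 of the 48 genes, 12 higher and 22 lower in DKO 2. The NF-κB motif searched, GGAATTTCC, was found in CXCL8 and CXCL1 of the 12 and in 0 of the 22, in 0.428% of all 27305 promoters of the same length and in 0.380% of those of the genes compared. The AP-1 motif searched, TGANTCA, was found in CXCL8 and TNFSF15, in 6.60% of all promoters and in 3.42% of the 8157 promoters of the 9760 genes compared. The TATA motif searched, TATAAA, was found in 4 of the 12 (CXCL8, CYP1A1, FZD8 and KRTAP2-3) and 4 of the 22 (HSPA1A, ME3, PHGDH and S100A4), in 11.1% of all promoters and in 4.73% of those of the genes compared. A match gives the letters only. The NF-κB motif was searched as a fixed string identical to the sites marked in CXCL8 and CXCL1. Its match in these genes was thus set by the string, and the contrast with the other shares is no result. Variants of the motif were not counted. A difference between these shares was not tested.

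Among the other higher genes, 4 were higher in vector 2 by 2-fold or more. IGFN1, which encodes an immunoglobulin-domain protein known from striated muscle, was at 2.47 FPKM in DKO 1 and 5.34 in DKO 2, and at 1.27 in vector 1, 11.95 in vector 2, 1.62 in MRCKα KO and 1.46 in MRCKβ KO. Both DKO libraries therefore lay inside the range of the vector pair, whose gap was 9.41-fold. CYP1A1, a cytochrome P450 induced through the aryl hydrocarbon receptor, was at 3.72 and 8.05 FPKM in DKO 1 and DKO 2, at 5.93 and 13.53 in vector 1 and vector 2, and at 5.04 and 3.89 in MRCKα KO and MRCKβ KO. FAT3, an atypical cadherin, was at 1.99 and 4.71 FPKM in the DKO lines, 1.79 and 4.45 in the vector libraries, and 2.34 and 1.51 in MRCKα KO and MRCKβ KO. The mucin-like PARM1 had 2.04 and 4.99 FPKM in DKO 1 and DKO 2, 2.06 and 4.98 in vector 1 and vector 2, and 1.70 and 2.76 in MRCKα KO and MRCKβ KO. For FAT3 and PARM1 the vector pair thus repeated the DKO levels almost exactly, and in all 4 genes both libraries numbered 2 were above the other 4 libraries.

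KRTAP2-3, FZD8 and FCMR differed in the same direction by less than 2-fold in the vector pair. KRTAP2-3, a hair keratin-associated protein gene, was at 29.91 FPKM in DKO 1 and 68.80 in DKO 2, against 20.93 in vector 1, 37.21 in vector 2, 47.31 in MRCKα KO and 17.57 in MRCKβ KO. The Wnt receptor gene FZD8 was 2.29-fold and FCMR, an IgM receptor gene, 2.01-fold higher in DKO 2, and in the vector pair they were 1.70-fold and 1.49-fold higher. The annotated spans of FCMR and IL24 overlap on chromosome 1.

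In 3 of the higher genes the vector pair ran the other way. TENM1, a teneurin of the cell surface, was at 8.22 FPKM in DKO 1 and 17.26 in DKO 2, but at 8.51 in vector 1 and 4.84 in vector 2. It was at 11.40 in MRCKα KO and 7.16 in MRCKβ KO, so DKO 2 was the highest and vector 2 the lowest of the 6 libraries. RAP1GAP2, which inactivates the small GTPase RAP1, was at 3.76 and 8.51 FPKM in the DKO lines and at 3.59 and 2.31 in the vector libraries. The secretory pathway kinase gene FAM20C was at 8.83 and 17.97 FPKM in the DKO lines and at 16.83 and 11.16 in the vector libraries. Its DKO 2 level exceeded vector 1 by little, while DKO 1 was the lowest of the 6 libraries, against MRCKα KO at 9.15.

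**Figure D2:**
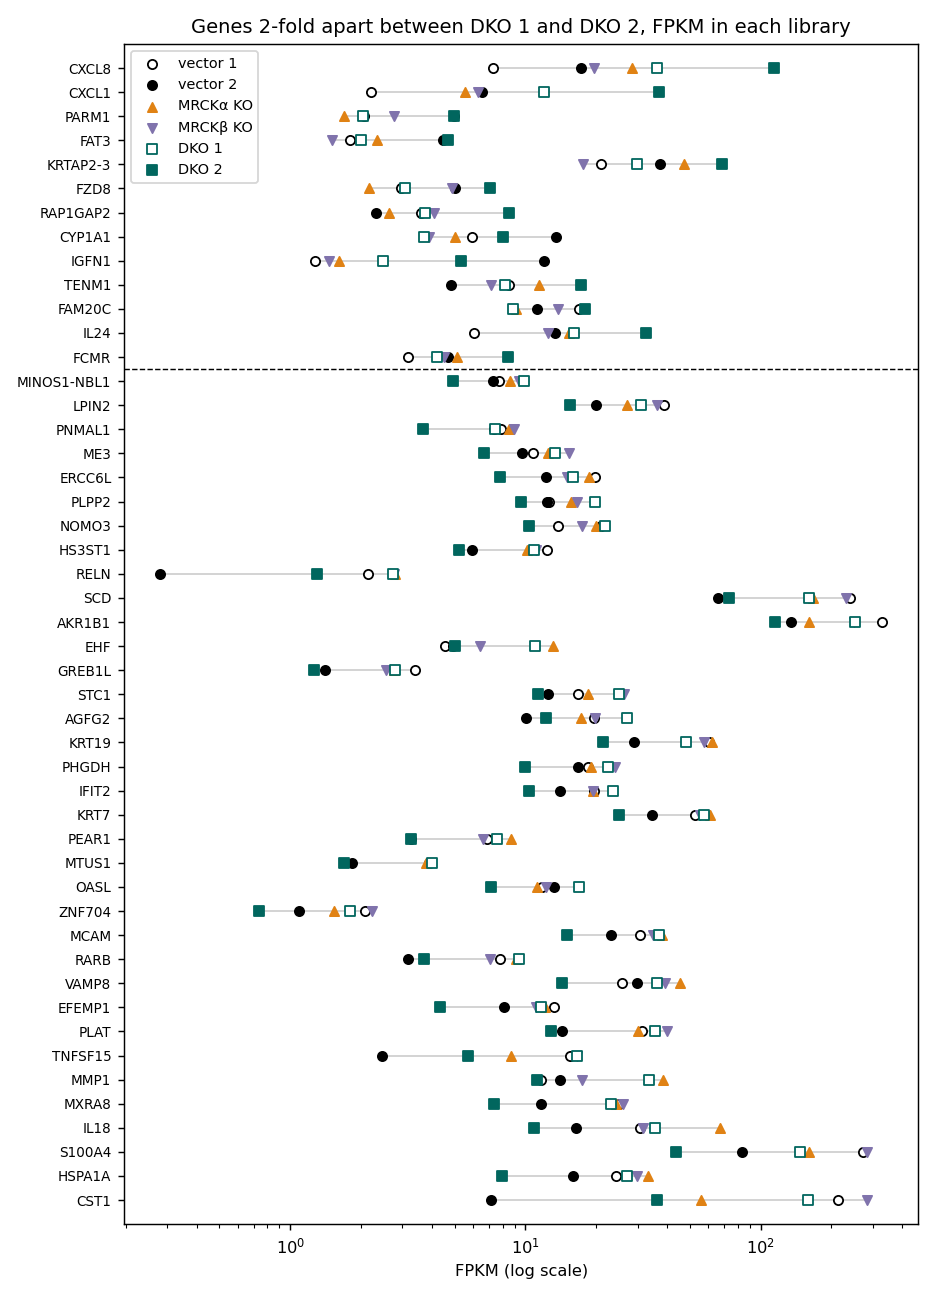
FPKM (log scale) in each of the 6 libraries for the 48 genes, ordered by the ratio of DKO 2 to DKO 1, with the 13 higher genes above the dashed line and the 35 lower genes under it. Filled squares (DKO 2) are the highest point in 11 of the 13 and the lowest in 27 of the 35.

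The lower genes were led by CST1, which encodes cystatin SN, an inhibitor of cysteine proteases. It was at 159.51 FPKM in DKO 1 and 36.29 in DKO 2 (4.40-fold lower), against 213.45 in vector 1, 7.15 in vector 2, 55.91 in MRCKα KO and 282.46 in MRCKβ KO. The vector pair was 29.9-fold apart, with 56.08 counts in vector 2, so both DKO lines and MRCKα KO lay between the vector libraries. The related cystatin genes CST4 and CST2 stood in the same order in both pairs, with log2 count ratios of -2.31 and -1.83 between the DKO lines and -4.21 and -4.05 between the vector libraries. Their sequences are alike, and reads could be shared among them.

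S100A4, a calcium-binding protein linked to cell motility, was at 146.82 FPKM in DKO 1 and 43.67 in DKO 2, and at 272.80 in vector 1, 83.42 in vector 2, 160.67 in MRCKα KO and 283.65 in MRCKβ KO. PLAT, the tissue plasminogen activator, was at 35.69 and 12.80 FPKM in the DKO lines, 31.31 and 14.26 in the vector libraries, 30.26 in MRCKα KO and 39.98 in MRCKβ KO. For both genes the libraries numbered 2 were the lowest pair of the 6. MMP1, the interstitial collagenase, did not follow that order, since it was at 33.43 FPKM in DKO 1 and 11.18 in DKO 2 but at 11.66 in vector 1 and 14.10 in vector 2. It was at 38.46 in MRCKα KO and 17.44 in MRCKβ KO, so DKO 2 was close to vector 1 and DKO 1 was near MRCKα KO.

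Other lower genes with products that are secreted, at the cell surface or acting on matrix sugars were MXRA8, EFEMP1 (fibulin-3), RELN (the matrix glycoprotein reelin), STC1 (the secreted glycoprotein stanniocalcin), HS3ST1 (a heparan sulfate sulfotransferase), the adhesion molecule MCAM and the cell surface receptor PEAR1. They were 2.10-fold (HS3ST1) to 3.16-fold (MXRA8) lower in DKO 2, and all 7 were lower in vector 2 than in vector 1, MXRA8, RELN, HS3ST1 and PEAR1 by 2-fold or more. RELN had the widest vector gap of the 7, at 2.15 FPKM in vector 1 and 0.28 in vector 2, against 2.74 and 1.30 in the DKO lines. Its vector counts were 268 and 34, so the size of this gap is imprecise.

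A pair of cytokine genes was lower in DKO 2 while the chemokines were higher. TNFSF15, a ligand of the TNF family, was at 16.56 FPKM in DKO 1 and 5.70 in DKO 2, and at 15.47 in vector 1, 2.45 in vector 2, 8.69 in MRCKα KO and 16.58 in MRCKβ KO. IL18, an interleukin-1 family cytokine, was at 35.59 and 10.85 FPKM in the DKO lines, 30.75 and 16.38 in the vector libraries, 67.11 in MRCKα KO and 31.62 in MRCKβ KO. Both genes were lower in both libraries numbered 2 than in the other 4.

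The keratin genes KRT7 and KRT19 and the transcription factor gene EHF were among the lower genes. KRT7 was at 57.41 FPKM in DKO 1 and 25.00 in DKO 2, and at 52.41 in vector 1, 34.46 in vector 2, 61.10 in MRCKα KO and 55.09 in MRCKβ KO. KRT19 was at 48.06 and 21.47 FPKM in the DKO lines, 60.40 and 28.85 in the vector libraries, 62.20 in MRCKα KO and 57.54 in MRCKβ KO. EHF, an ETS transcription factor of epithelial cells, was at 11.02 and 5.03 FPKM in the DKO lines but at 4.56 and 4.91 in the vector libraries, with 13.09 in MRCKα KO and 6.44 in MRCKβ KO. EHF was the 1 lower gene for which both DKO libraries remained above both vector libraries.

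Metabolic enzymes among the lower genes were SCD, AKR1B1, PHGDH, ME3, LPIN2 and PLPP2. SCD, the stearoyl-CoA desaturase of fatty acid synthesis, had by far the most reads, with 9244 expected counts in DKO 1 and 4274 in DKO 2, and was at 160.08 and 73.66 FPKM in the DKO lines, 239.34 and 65.85 in the vector libraries, 166.43 in MRCKα KO and 231.85 in MRCKβ KO. Aldose reductase, AKR1B1, was at 251.02 and 115.07 FPKM in the DKO lines and 329.61 and 135.08 in the vector libraries, with 160.01 in MRCKα KO and 249.63 in MRCKβ KO. The vector gap of SCD and AKR1B1 (3.63-fold and 2.44-fold) was wider than the DKO gap (2.17-fold and 2.18-fold). PHGDH, the first enzyme of serine synthesis, was at 22.46 and 9.97 FPKM in the DKO lines but nearly equal in the vector libraries, at 18.39 and 16.77. The mitochondrial malic enzyme ME3 and the lipid phosphatase PLPP2 were likewise 2.02-fold and 2.06-fold lower in DKO 2 and 1.11-fold and 1.02-fold lower in vector 2, while the phosphatidate phosphatase LPIN2 was 2.01-fold and 1.96-fold lower.

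The antiviral genes OASL and IFIT2 were at 16.97 and 23.67 FPKM in DKO 1 and at 7.15 and 10.37 in DKO 2. OASL was at 11.76 in vector 1, 13.28 in vector 2, 11.23 in MRCKα KO and 12.21 in MRCKβ KO, and IFIT2 was at 19.50, 13.98, 19.36 and 19.44. For both genes DKO 1 was the highest and DKO 2 the lowest of the 6 libraries.

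Among genes of other roles, RARB (a retinoic acid receptor), MTUS1 (a microtubule-associated protein) and GREB1L were lower by 2-fold or more in both pairs. AGFG2, ZNF704 and ERCC6L (a DNA helicase of mitosis) were 2.05-fold to 2.42-fold lower in DKO 2 and 1.62-fold to 1.95-fold lower in vector 2. PNMAL1 was 2.02-fold lower in DKO 2 and 1.07-fold in vector 2. VAMP8, a SNARE protein of vesicle fusion, was at 36.36 and 14.30 FPKM in the DKO lines and, the other way, at 25.76 and 29.85 in the vector libraries.

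For 3 of the lower genes in particular, the FPKM could depend on how reads were divided among near copies. HSPA1A, an inducible HSP70 gene, was at 27.11 and 7.97 FPKM in the DKO lines (log2 -1.77), but the expected counts summed over HSPA1A and its near-identical copy HSPA1B had a log2 ratio of 0.09. NOMO3 was at 21.72 and 10.41 FPKM (log2 -1.06), and counts summed over NOMO1, NOMO2 and NOMO3 had a log2 ratio of -0.07. MINOS1-NBL1, a readthrough of neighbouring genes, was at 9.91 and 4.94 FPKM (2.01-fold lower), beside log2 count ratios of 0.01 for MINOS1 and -0.01 for NBL1. These 3 genes are counted among the 35 but their differences are uncertain. Without them 38 of 45 genes had the same sign in the vector pair. Reads could be shared for other members too, since some had counts that were not whole numbers. Among these were CXCL1 (146.42 and 453.5 counts in DKO 1 and DKO 2) and KRTAP2-3 (268 and 619.39). The estimated transcript length differed by over 5 percent between the DKO lines in 5 of the 48 genes, at most by 9.05 percent.

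In the counts themselves, the exact 95% interval of the DKO 2 to DKO 1 ratio excluded equal levels for all 48 genes. The 2-fold limit and the minimum of 100 counts that chose the genes largely fixed that outcome in advance. The interval lay wholly beyond 2-fold for 3 of the higher genes (CXCL8, CXCL1 and FAT3) and 16 of the lower genes. Molecular identifiers were not used, so these intervals hold counting error alone. For CXCL8, with 651 and 2057 counts, the log2 count ratio was 1.65 (1.53 to 1.78), and for CST1, with 1263 and 289 counts, it was -2.13 (-2.32 to -1.95). In the vector pair, the interval excluded equal levels in the same direction for 10 of the 13 and 25 of the 35 genes. It excluded them in the opposite direction for TENM1, RAP1GAP2 and FAM20C of the higher genes and for MMP1, OASL and NOMO3 of the lower genes. For the other 7 lower genes, VAMP8, PHGDH, EHF, PLPP2, ME3, PNMAL1 and MINOS1-NBL1, a difference between the vector libraries was not detectable at this depth.

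**Figure D3:**
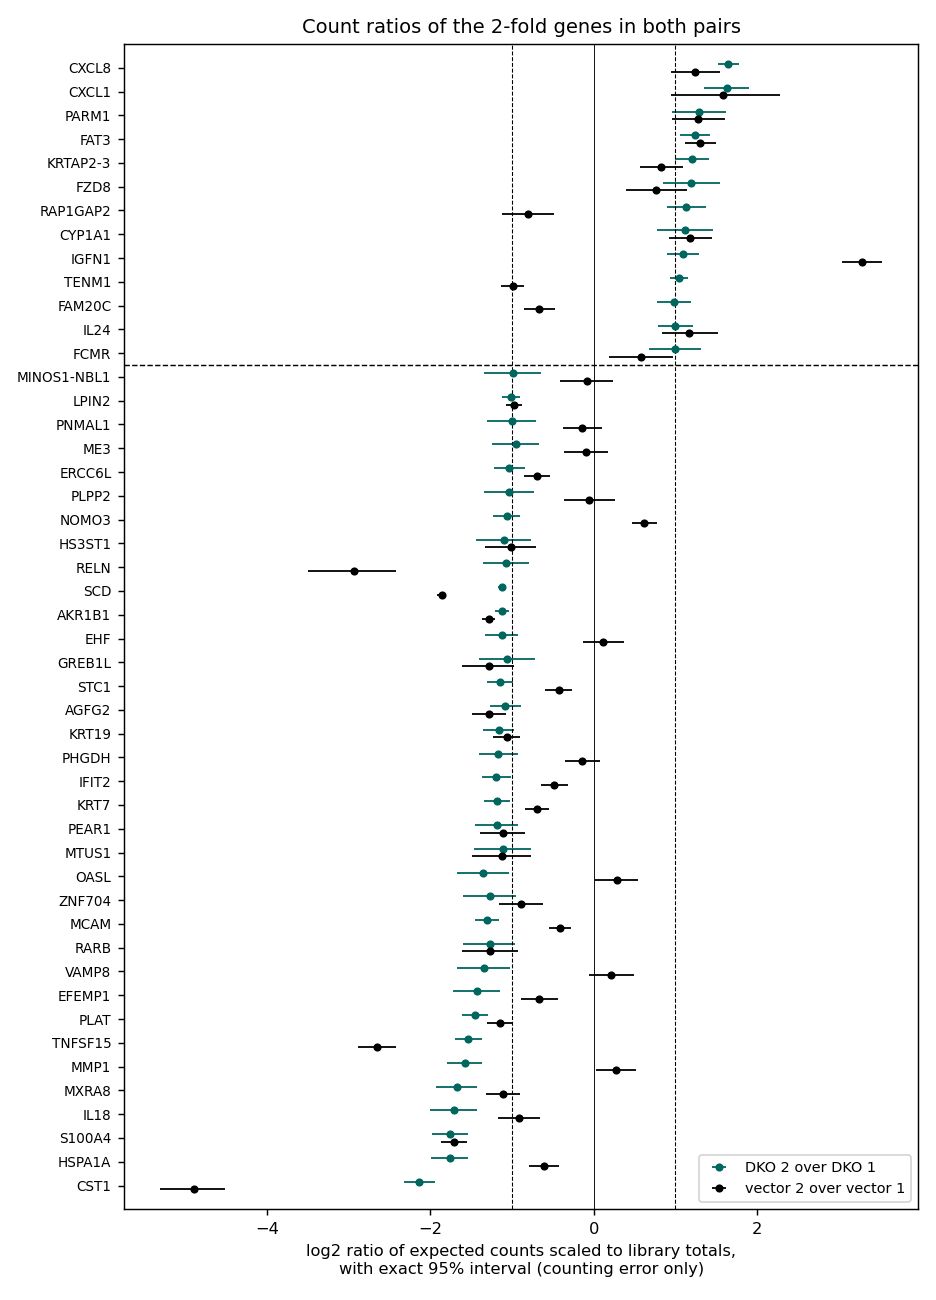
Log2 ratio of expected counts scaled to library totals with exact 95% intervals (counting error only) for the 48 genes, DKO 2 over DKO 1 in green and vector 2 over vector 1 in black, with dashed lines at 2-fold. The black points of IGFN1, TNFSF15, RELN, SCD and CST1 lie farther from 0 than the green ones, while those of TENM1, RAP1GAP2 and FAM20C lie on the other side of 0.

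Near the 2-fold limit the genes did not separate sharply. On the higher side FCMR (2.01-fold), IL24 (2.02-fold) and FAM20C (2.04-fold) were just inside it, and ANOS1, GPR39 and LYPD1 just outside at 1.99-fold, 1.99-fold and 1.96-fold. On the lower side MINOS1-NBL1, LPIN2 and PNMAL1 were just inside, at a DKO 2 to DKO 1 ratio of 0.498, 0.496 and 0.496, and CD74, SEMA3F and KRT80 just outside, at 0.501, 0.502 and 0.503. All 3 genes just outside on each side had the same sign in the vector pair, LYPD1 and KRT80 at 2-fold or more.

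In position among all 6 libraries it was DKO 2 that stood apart more often than DKO 1. DKO 2 was above every other library in 11 of the 13 higher genes (21.1% of all 9760 genes) and below every other in 27 of the 35 lower genes (14.8%). DKO 1 was the lowest of all in 2 of the 13 (8.87%) and the highest of all in 8 of the 35 (10.5%). The choice of genes set DKO 2 against DKO 1, so these positions are partly fixed. On a log scale, MRCKα KO was nearer to DKO 1 than to DKO 2 in 12 of the 13 and 31 of the 35 genes (59.9% of all genes), and MRCKβ KO in 11 and 33 (65.2% of all genes). DKO 2 and vector 2 were both below the other 4 libraries in 30 of the 35 lower genes (15.3% of all genes) and both above them in 5 of the 13 higher genes (14.6%). The 5 exceptions among the lower genes were MMP1, VAMP8, OASL, EHF and NOMO3.

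Seen from the vector pair, the direction was shared as often, but fewer genes reached 2-fold. Of the 66 genes at least 2-fold higher in vector 2, 54 (81.8%) were higher in DKO 2 than in DKO 1, beside 52.9% of all genes, 7 by 2-fold, with a median DKO log2 ratio of 0.25. Of the 106 genes at least 2-fold lower in vector 2, 91 (85.8%) were lower in DKO 2, beside 46.8% of all genes, 14 by 2-fold, with a median of -0.60. The same 21 genes thus made up 21 of 48 genes of the DKO pair and 21 of 172 of the vector pair. Both DKO libraries lay inside the range of the vector libraries for 46 of the 66 and 62 of the 106 genes (25.8% of all genes). These genes were chosen for a wide vector gap, and a wide range holds other libraries more readily. The excess over all genes is therefore largely fixed in advance and is no result about the DKO lines.

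Of the 389 measured genes in 18 lists of pathways and cell functions, 13 (3.34%) were among the 48, beside 0.492% of all genes, 3 higher and 10 lower in DKO 2. The lists were chosen with earlier results of these data known, so this contrast and the list counts below are no independent results. HSPA1A, whose difference is uncertain, is among the 13. In 17 of the lists at least 1 gene was measured.

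Cholesterol and fatty acid synthesis, a set of enzymes and regulators controlled by the SREBP transcription factors, was lower as a whole in both libraries numbered 2. All 28 measured genes were lower in DKO 2 than in DKO 1 (46.8% of all genes), with a median log2 ratio of -0.42 next to 0.01 over all genes, and all 28 were lower in vector 2 than in vector 1, with a median of -0.68 next to -0.01. For 25 of the 28, DKO 2 and vector 2 were both below the other 4 libraries. Only SCD was 2-fold apart in the DKO pair. FASN, the fatty acid synthase, was at 59.46 and 40.49 FPKM in the DKO lines, 59.20 and 34.36 in the vector libraries, 47.22 in MRCKα KO and 60.66 in MRCKβ KO.

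NF-κB and inflammation genes were mostly higher in the library numbered 2 of each pair and mostly higher in the DKO lines than in the vector libraries. Of 23 measured genes, 19 were higher in DKO 2 (52.9% of all genes) and 19 higher in vector 2 (49.2%), with medians of 0.26 and 0.51. The 19 higher in DKO 2 include CXCL8, CXCL1 and IL24, which the DKO ratio itself chose. These genes were 2-fold apart in the DKO pair and 8 genes were 1.5-fold apart, all 8 higher in DKO 2. RELB, an NF-κB subunit, was at 9.23 and 16.01 FPKM in the DKO lines and 4.23 and 7.52 in the vector libraries, and BIRC3, an inhibitor of apoptosis, at 11.25 and 18.55 and at 4.31 and 10.07. For 17 of the 23 genes both DKO libraries were above both vector libraries (17.9% of all genes). Several genes of the list fell short of 100 counts, among them CXCL3 with 22.9 and 67.9 counts in DKO 1 and DKO 2 and 8.85 and 16.4 in vector 1 and vector 2, and IL1A with 65 and 158 and with 22 and 52. CCL2 went the other way in both pairs, with 28 and 7 counts in the DKO lines and 25 and 0 in the vector libraries, and LTB had 13 in each DKO line.

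Interferon response genes, which are induced by antiviral cytokines, stood mostly lower in DKO 2 and mostly higher in vector 2. Of 29 measured genes, 22 were lower in DKO 2 (median -0.26), beside 46.8% of all genes. In vector 2, 20 were higher (median 0.12), beside 49.2% of all genes. This difference between the pairs was not tested. IFIT3 was at 48.33 and 25.20 FPKM in the DKO lines and at 38.92 and 50.19 in the vector libraries, and IFIT1 at 12.22 and 7.37 and at 8.73 and 14.97. The exceptions to being lower in DKO 2 included MX1 and IRF1, with log2 ratios of 0.06 and 0.19.

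The NRF2 targets, genes of antioxidant defence, were mostly higher in vector 2, with a DKO median close to that of all genes. Their 13 measured genes had a median log2 ratio of 0.82 in the vector pair. Of them 12 were higher in vector 2 (49.2% of all genes) and 5 by 2-fold (0.676%). In the DKO pair the median was 0.07, with 8 higher in DKO 2 (52.9% of all genes) and 0 by 2-fold (0.133%). NQO1 was at 75.73 and 268.27 FPKM in vector 1 and vector 2 and at 57.10 and 77.10 in DKO 1 and DKO 2. TXNRD1, a thioredoxin reductase, was at 127.10 and 175.97 FPKM in the vector libraries and ran the other way in the DKO lines, at 128.38 and 70.73.

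Over all 9760 genes, 52.9% were higher and 46.8% lower in DKO 2, and 49.2% were higher and 50.7% lower in vector 2. Several of the direction counts that follow are near these shares. Among the 11 measured epithelial-mesenchymal genes, 8 were lower in DKO 2 (median -0.38) and 7 lower in vector 2 (median -0.23). The 8 lower in DKO 2 included KRT7, KRT19, KRT80 and KRT81, with log2 ratios of -1.20, -1.16, -0.99 and -0.88. The other lower genes are not named here, so the keratin genes do not describe the list as a whole. The 3 higher were VIM, SNAI2 and ZEB1, with 0.29, 0.02 and 0.13, so SNAI2 and ZEB1 were close to equal. Cell cycle and mitosis genes were higher in DKO 2 for 27 of 33 by little (median 0.11), and 18 of the 33 were above the other 4 libraries in both libraries numbered 2 (14.6% of all genes). Of the 34 measured genes of adhesion, matrix and invasion, 20 were lower in DKO 2, of which S100A4, MMP1 and PLAT were 2-fold apart, and 22 were higher in vector 2, with medians of -0.07 and 0.11. Hypoxia and glycolysis genes were lower in DKO 2 for 18 of 21 and lower in vector 2 for 16, with a median of -0.20 in both pairs and 0 genes 2-fold apart between the DKO lines. Immediate early genes, the first to respond to growth signals, were higher in DKO 2 for 16 of 22 (median 0.05) and lower in vector 2 for 15 of 22 (median -0.31). The ATF4 and unfolded protein response genes were lower in DKO 2 for 16 of 23 (median -0.14), with PHGDH 2-fold apart, and lower in vector 2 for 13. Cytosolic ribosomal protein genes were higher in DKO 2 for 65 of 81 (median 0.09) and higher in vector 2 for 70 (median 0.26), and 0 were 2-fold apart in either pair. Of the 18 measured genes of the targeted kinases and their pathway, 0 were 2-fold apart, 11 were lower in DKO 2 and the median was -0.06. At the 0.492% of all genes that were 2-fold apart between the DKO lines, a count of 0 in lists of this size is no result about them.

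**Figure D4:**
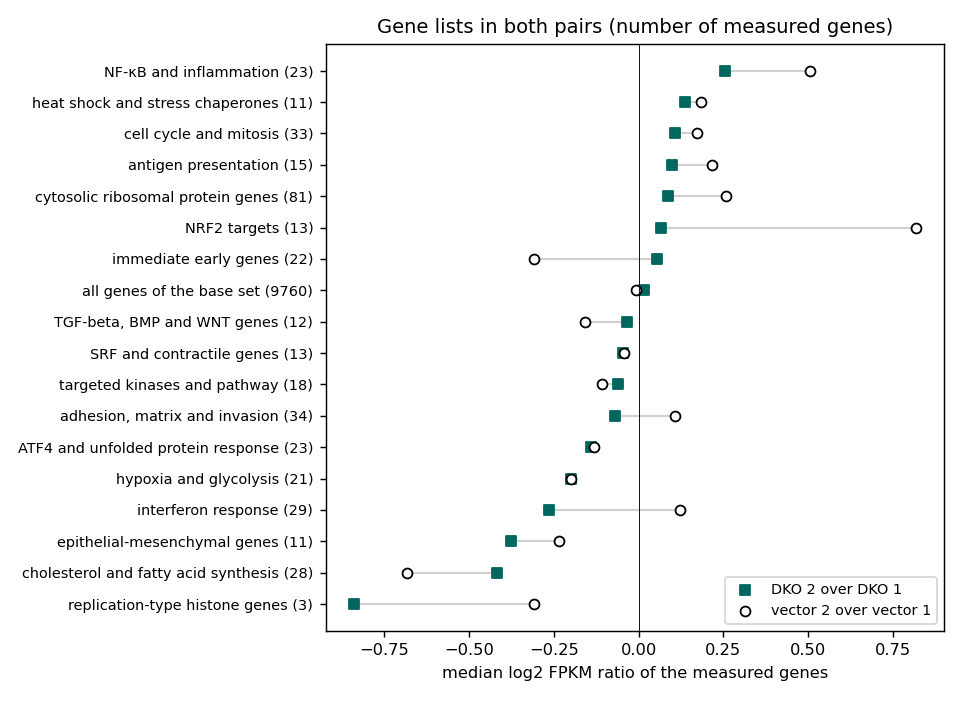
Median log2 FPKM ratio of the measured genes of each list, for DKO 2 over DKO 1 (green squares) and vector 2 over vector 1 (open circles), with the number of measured genes in brackets. Cholesterol and fatty acid synthesis lies at -0.42 and -0.68, NF-κB and inflammation at 0.26 and 0.51, and interferon response and NRF2 targets differ between the pairs.

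**Figure D5:**
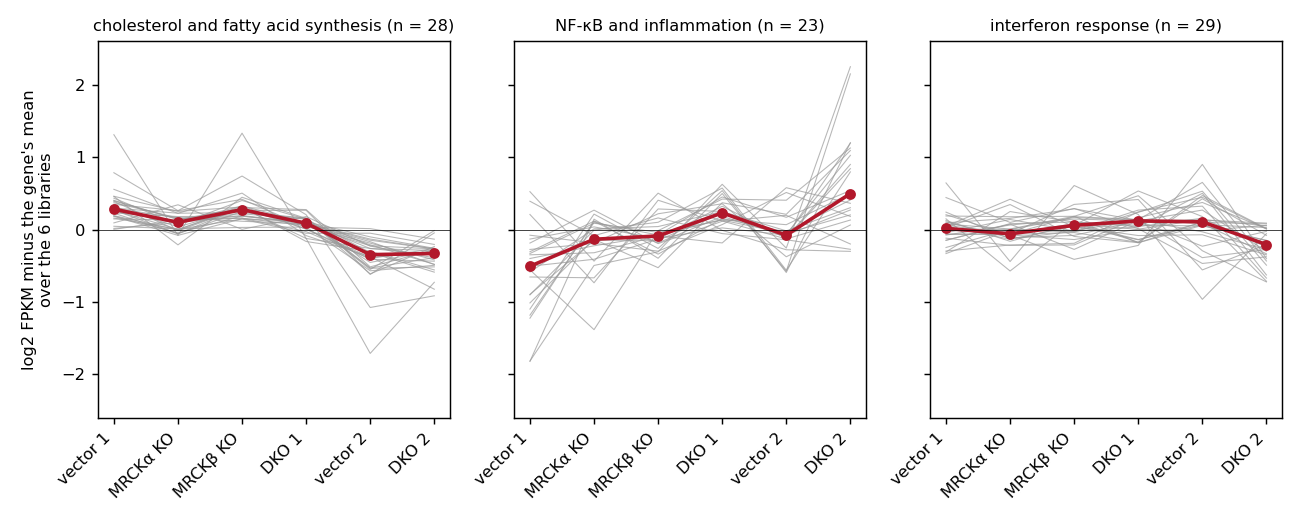
Log2 FPKM of each gene minus its mean over the 6 libraries, for 3 lists, with 1 thin line a gene, the median in red and the libraries numbered 2 at the right. Cholesterol and fatty acid synthesis is low in vector 2 and DKO 2 together, NF-κB and inflammation is lowest in vector 1 and highest in DKO 2, and interferon response is lowest in DKO 2.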

How the data were processed

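The 6 libraries of MDA-MB-231 RNA were sequenced as single-end reads of 50 bases. Per the submitters' processing notes, HISAT, Bowtie2 and RSEM were used with GRCh38.p11. Their versions are not given in the sources used here. The deposited expected counts per gene are unnormalized RSEM estimates, and the deposited FPKM values are scaled by the authors to transcript length and library total and rounded to 2 decimals. Groups and numbers were taken from the sample titles.

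The genes compared had at least 100 expected counts in both DKO libraries, and the 48 were those with an FPKM ratio of DKO 2 to DKO 1 of at least 2 or at most 0.5. Count ratios were scaled to library totals, with exact (Clopper-Pearson) 95% intervals. With 1 library a line no test between lines was made. The script was tested on simulated data. Alternatives were other count minimums, folds and pseudocounts, count ratios, TMM scaling, exclusion of readthrough genes and each library left out. Python 3.11.15, pandas 2.3.3, numpy 2.4.6, scipy 1.17.1, matplotlib 3.10.9, R 4.3.3 and edgeR 4.0.16 (TMM factors only) were used. Promoters and motif positions are from RefSeq.

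Genes were named by a rule: the targeted genes, the 15 largest ratios in each direction, up to 10 in each direction also 2-fold apart in the vector pair in the same or in the opposite direction, listed genes 2-fold apart, and the 3 genes just inside and outside the limit on each side. The remaining members, near copies and other genes were named after their values were seen. The members and the gene lists were chosen with earlier results of these data known. All lists are in the plot of list medians, except the list of small nuclear and nucleolar RNA genes, of which 0 were measured. A HEK293T gene list, checked as a possible carry-over, summed to 0 to 0.83 FPKM, and a list of blood cell genes to 0.29 to 1.24 FPKM.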

Additional observations from a re-analysis of the deposited data

How the results depend on the processing

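The number of genes followed the count minimum and the fold. With a minimum of 50 counts 29 genes were higher and 75 lower in DKO 2, with 200 counts 8 and 19, and with 1000 counts 1 and 3. A pseudocount of 1 FPKM gave 3 and 22, a limit of 1.5-fold 114 and 243, and the requirement that the count interval lie wholly past 2-fold 3 and 16. Count ratios gave 13 and 39, and TMM-scaled count ratios 12 and 42. The genes changed as well as their number. With counts rounded to whole numbers, 4 of the 48 genes were not 2-fold apart by count ratio and 9 others were. Over these alternatives 75.0 to 88.0 percent of the genes had the same sign in the vector pair, against 83.3 percent. Summing HSPA1A with HSPA1B turned its log2 ratio to 0.0885, and summing NOMO3 with NOMO1 and NOMO2 gave -0.07, alternatives chosen after seeing the data, as was the exclusion of HSPA1A, NOMO3 and MINOS1-NBL1, which left 13 and 32 genes. The number of genes with DKO 2 outside all other libraries was 38 to 47 when each other library was left out in turn (38 with all, 47 without vector 2), and with DKO 1 outside 10 to 17 (17 without MRCKα KO). No paired analysis was possible because the difference between DKO 2 and DKO 1 comes from no test, with 1 library a line. A fit of the library number over the 4 vector and DKO libraries was not made. Leaving out a DKO library left no pair. Genes with few reads limit the precision, since the lower count of a gene could be as small as 102.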

Other observations

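The genes at least 1.5-fold apart in both pairs were mostly in the same direction, 176 against 12. The 12 in opposite directions were seen only in values and have no replicate check. EGR1, an immediate early transcription factor induced by growth factor signalling, was at 37.51 FPKM in DKO 1 and 70.82 in DKO 2, but at 12.49 in vector 1 and 6.81 in vector 2, with 23.23 in MRCKα KO and 18.11 in MRCKβ KO. Thus all 4 knockout libraries were above both vector libraries and the pairs spread apart. KLF2, a Krüppel-like transcription factor, was at 7.63 and 11.77 FPKM in the DKO lines and 9.35 and 5.89 in the vector libraries. The teneurin gene TENM2 was at 8.97 and 13.61 FPKM in the DKO lines and 7.35 and 1.97 in the vector libraries, so that each pair differed in the same direction as for its relative TENM1.

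LPXN, which encodes the focal adhesion protein leupaxin, ran the other way, at 29.61 FPKM in DKO 1 and 15.16 in DKO 2 and at 15.47 in vector 1 and 31.89 in vector 2. DKO 1 was thus near vector 2 and DKO 2 near vector 1. It missed the 2-fold limit in the DKO pair by little (1.95-fold). The myosin light chain genes MYL12A and MYL12B encode the regulatory chains that MRCK signalling acts on. They had DKO log2 ratios of -0.88 and -0.75 and were the 2 genes of the pathway list at least 1.5-fold apart. Of all genes, 2.49% were 1.5-fold lower and 1.17% 1.5-fold higher in DKO 2. In the vector pair, 12 of the 18 measured genes of this list were lower in vector 2 (50.7% of all genes). The list of MYL12A and MYL12B spanned vector log2 ratios of -0.64 to 0.24. Their own vector ratios lie within that span and are not given here. Their DKO ratios are therefore not shown to be particular to the DKO lines. How reads were divided between these related genes was not tested.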
